A study of Mus musculus with 10 samples.

Results

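The genes described here are those of hepatic fatty acid synthesis under the control of SREBP1 and ChREBP. They were chosen by symbol, by a rule that uses no measured value but with earlier results of these data known, and are the regulators Srebf1 and Mlxipl, the enzymes Acaca, Acacb, Fasn, Elovl6, Scd1 and Me1, and the lipogenesis-associated genes Thrsp and Pnpla3. They are 10 of the 38922 genes in the files, and all 10 were among the 13719 genes with enough counts to be tested. RNA was sequenced from the livers of 10 male wildtype C57BL/6N mice, an inbred laboratory strain, at 6 weeks of age, each giving 1 library. In the CD95-Ab group, 5 mice received 0.5 µg/g body weight of an antibody that activates the death receptor CD95 (Fas) by intraperitoneal injection, and in the saline group 5 mice received an equal volume of saline. All were sacrificed 6 h later and all had free access to standard chow, although food intake after the injection is not given in the sources used here.

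De novo lipogenesis turns surplus carbohydrate into fatty acids in the cytosol of hepatocytes, and the fatty acids are then esterified to triglyceride. SREBP1, a membrane-bound factor released by proteolysis and responsive to insulin and to the oxysterol receptor LXR, and ChREBP, a factor responsive to glucose metabolites, bind the promoters of many of the same enzymes. The related factor SREBP2 mainly controls cholesterol synthesis. In the liver the lipogenic genes rise with feeding and fall with fasting.

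Depth was between 25965699 and 62097636 counts per mouse, and 3 counts corresponded to 0.116 CPM (counts per 1000000) at the lowest total. CPM here are counts scaled to totals adjusted with TMM factors, which set the bulk of genes to the same level in every library. The members' lowest count in any mouse was 21, for Pnpla3, and the other members had at least 928 counts in every mouse. The tissue was liver by its markers, with 12 hepatocyte genes summing to between 101717 and 127905 CPM in saline-injected mice and between 44854 and 83510 CPM after CD95-Ab. Of these 12 genes, 7 were lower after CD95-Ab in the quasi-likelihood test of edgeR at an adjusted p (FDR, Benjamini-Hochberg) of 0.05 or less, which is the threshold used throughout, and none was higher. Of the markers of other cells, 5 of 8 for leukocytes and macrophages, 3 of 4 for endothelium, 2 of 4 for stellate cells and 3 of 4 for cholangiocytes were higher. Of all tested genes, 25.4% were higher and 22.0% lower, and lists of 4 markers are too short to set firmly against these shares. In whole liver, fewer hepatocytes and less RNA per hepatocyte cannot be told apart. The 5 adipocyte markers, of which Plin1 was at 0 in all saline-injected mice, summed to between 0 and 1.41 CPM in saline-injected mice and between 0.0221 and 0.323 CPM after CD95-Ab, so fat adhering to the samples gave almost no counts.

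Of the 10 lipogenic genes, 3 were lower after CD95-Ab, none was higher and 7 did not pass the test. The 3 were Srebf1, Scd1 and Acacb, with 2.40-fold, 2.21-fold and 1.61-fold lower levels. Among all 13719 tested genes, 22.0% were lower and 25.4% were higher at the same threshold, so 3 of 10 lower was near the background and 0 of 10 higher was below it. The median log2 fold change of the 10 genes was -0.55, against 0.0064 for all tested genes. None reached the study's fold threshold, a log2 fold change of at least 2 in either direction. Acacb was the only member whose groups did not overlap, a separation in the lower direction that 14.7% of tested genes showed. The share of tested genes that separated in the higher direction was not computed, so separations upward named below have no background beside them.

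**Figure D1:**
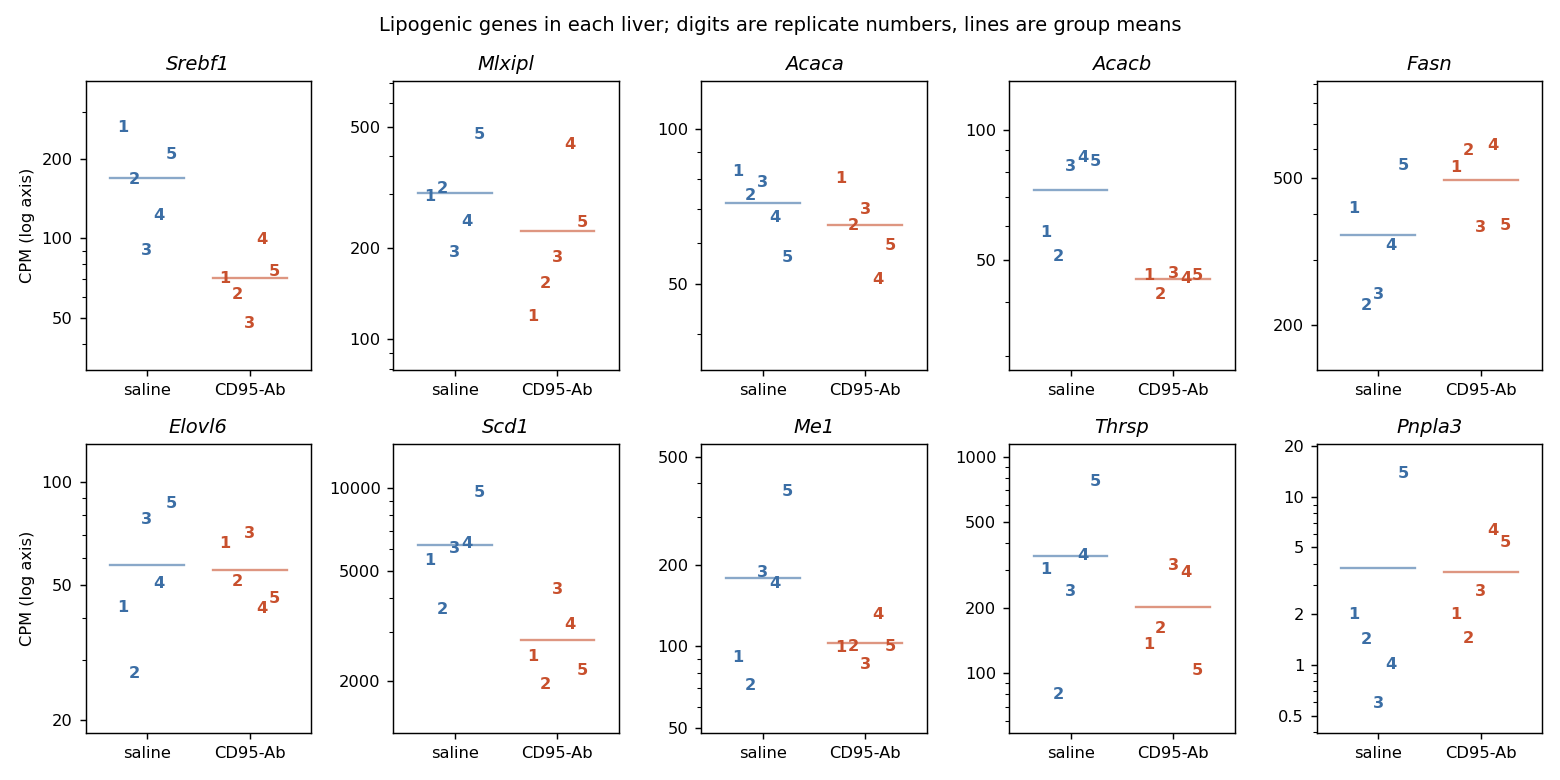
Level of each of the 10 lipogenic genes in each liver, in CPM on a log axis, with saline-injected mice at the left and mice injected with CD95-Ab at the right. Each digit is the replicate number of a mouse and each line a group mean of 5 mice. Acacb is the only gene whose groups do not overlap, Fasn has the higher mean after CD95-Ab, and saline replicate 5 is the highest saline-injected mouse for 7 of the 10 genes.

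The 3 promoters shown are those of both regulators and of Fasn, the only member with a positive log2 fold change. Each is the 250 bases before the start of a RefSeq transcript (GRCm38.p6), read 5′ to 3′ on the gene's strand. It is 1 of 3 windows for Srebf1, the one furthest upstream, and 1 of 2 for Mlxipl. Another Srebf1 window, chr11:60210472-60210721, has ATTGG at -30 to -26 from the transcript start. Which isoform of Srebf1 each window serves was not examined. Capitals mark CCAAT or its complement ATTGG, the box bound by NF-Y, a partner of SREBP, and CACGTG, a palindromic E-box.
Srebf1, chr11:60222582-60222831, minus strand: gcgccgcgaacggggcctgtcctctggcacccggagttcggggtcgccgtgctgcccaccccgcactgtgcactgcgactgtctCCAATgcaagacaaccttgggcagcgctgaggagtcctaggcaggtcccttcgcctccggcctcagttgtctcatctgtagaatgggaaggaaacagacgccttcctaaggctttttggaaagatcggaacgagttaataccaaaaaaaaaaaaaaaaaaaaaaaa
Mlxipl, chr5:135089640-135089889, plus strand: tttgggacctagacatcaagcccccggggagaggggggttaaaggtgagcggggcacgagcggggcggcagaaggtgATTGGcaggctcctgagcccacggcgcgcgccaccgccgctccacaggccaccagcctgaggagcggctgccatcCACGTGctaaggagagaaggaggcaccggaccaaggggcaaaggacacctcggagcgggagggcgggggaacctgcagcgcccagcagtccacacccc
Fasn, chr11:120824548-120824797, minus strand: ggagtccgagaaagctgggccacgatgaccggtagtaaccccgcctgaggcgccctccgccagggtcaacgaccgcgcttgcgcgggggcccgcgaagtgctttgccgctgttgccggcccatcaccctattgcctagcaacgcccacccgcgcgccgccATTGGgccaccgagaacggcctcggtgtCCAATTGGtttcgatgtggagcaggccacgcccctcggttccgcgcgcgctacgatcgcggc
RefSeq gave such a window for 9 of the 10 genes, with 13 windows in all, and none for Scd1. The 4 patterns of letters below were searched on both strands. CCAAT was present in 8 of the 13 windows, which belong to 7 of the 9 genes, and in 33.8% of the 32851 windows of all genes. Several of the windows lie inside the annotated gene, among them the only ones of Acaca (chr11:84195188-84195437) and Acacb (chr5:114165268-114165517). For Me1, CCAAT was in the window inside the gene, chr9:86687278-86687527, and not in that at the annotated start, chr9:86695915-86696164. In the Thrsp window 180 of the 250 bases are annotated exon. CACGTG was present in 1 of the 13 windows, that of Mlxipl shown, and in 6.02% of all windows. A core of the sterol response element, TCACNCCAC, was present only in a second window of Mlxipl and in 1.05% of all windows. A pair of loosely matched E-boxes with the spacing of a carbohydrate response element was present in no window of these genes and in 0.639% of all windows. In the Fasn window CCAAT lay at -62 to -58 and ATTGG at -59 to -55, sharing the middle bases, with another ATTGG at -90 to -86, counted from the transcript start. These matches describe the letters only, and a longer window was not searched.

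Srebf1 encodes SREBP1 and lies on the minus strand of chromosome 11, from 60199089 to 60222581 (GRCm38, ENSMUSG00000020538). Its levels were 262, 167, 90.0, 122 and 207 CPM in saline-injected replicates 1 to 5 and 70.4, 61.5, 47.7, 99.1 and 75.2 CPM in CD95-Ab replicates 1 to 5. All CD95-Ab mice except replicate 4 were below the lowest saline-injected mouse, replicate 3, and the groups overlapped by that pair. The log2 fold change was -1.26 ± 0.28 (SE), with an FDR of 0.00305 in the edgeR test. The counts cannot tell the isoforms SREBP1a and SREBP1c apart, and 109 of the gene's 5634 exonic bases overlap exons of Rai1 on the other strand.

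Mlxipl encodes ChREBP (chromosome 5, 135089890 to 135138382, plus strand, ENSMUSG00000005373). Saline-injected mice had 296, 313, 194, 244 and 472 CPM, and mice injected with CD95-Ab had 119, 153, 186, 436 and 242 CPM. CD95-Ab replicate 4, the mouse that also had the most Srebf1 in its group, was above all but 1 of the saline-injected mice, while CD95-Ab replicates 1 to 3 were below every saline-injected mouse. The log2 fold change of -0.42 ± 0.34 (SE) did not pass (FDR 0.333, edgeR). Without CD95-Ab replicate 4 it was -0.83 and passed, with an edgeR FDR of 0.0292. It shrank to -0.21 without saline replicate 5 (FDR 0.639, edgeR) and to -0.26 without CD95-Ab replicate 1 (FDR 0.556, edgeR).

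Acetyl-CoA carboxylase makes the malonyl-CoA from which fatty acids are built, and has 2 forms. Acaca, the cytosolic form that feeds synthesis (chromosome 11, 84129672 to 84401651, plus strand, ENSMUSG00000020532), had 82.4, 74.1, 78.6, 67.1 and 56.3 CPM in saline-injected mice and 80.1, 64.9, 69.7, 51.1 and 59.4 CPM after CD95-Ab. These groups overlapped almost fully, with a log2 fold change of -0.14 ± 0.15 (SE) and an FDR of 0.456 in the edgeR test. Acacb, the mitochondrial form whose malonyl-CoA restrains fatty acid oxidation (chromosome 5, 114146535 to 114250761, plus strand, ENSMUSG00000042010), had 57.8, 51.1, 82.4, 86.5 and 84.8 CPM in saline-injected mice and 46.1, 41.8, 46.6, 45.3 and 46.1 CPM after CD95-Ab. All 5 CD95-Ab mice were below all 5 saline-injected mice, and they were very alike, with a coefficient of variation of 4.36% against 23.1% in the saline group. On the log2 scale the change was -0.68 ± 0.16 (SE), with an FDR of 0.00365 in the edgeR test. The ratio of Acaca to Acacb within a mouse, which does not depend on how libraries are scaled, had a mean difference of 0.51 on the log2 scale, CD95-Ab minus saline, which did not pass (exact permutation test, two-sided, p = 0.0873, and 0.131 adjusted over 6 ratios). Without saline replicate 1 or 2, the saline-injected mice with least Acacb, the difference was 0.63 or 0.64 (exact permutation p = 0.0476 in either case, not adjusted).

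Fasn, the multidomain synthase that builds palmitate from malonyl-CoA, lies on the minus strand of chromosome 11 from 120805846 to 120824547 (ENSMUSG00000025153). It was the only member with a positive log2 fold change. Saline-injected mice had 414, 226, 241, 329 and 541 CPM, and mice injected with CD95-Ab had 534, 595, 367, 612 and 371 CPM. CD95-Ab replicates 2 and 4 were above the highest saline-injected mouse, replicate 5, and no CD95-Ab mouse was below the lowest. The edgeR estimate of the log2 fold change was 0.50 ± 0.26 (SE) and did not pass (FDR 0.128, edgeR). Without saline replicate 5 it was 0.71 and passed, with an edgeR FDR of 0.0306, and without any other single mouse it lay between 0.37 and 0.59 and did not pass.

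Elovl6, which lengthens palmitate to stearate (chromosome 3, 129532355 to 129638495, plus strand, ENSMUSG00000041220), had 42.8, 27.5, 77.8, 50.4 and 86.6 CPM in saline-injected mice and 66.1, 51.2, 70.9, 42.6 and 45.5 CPM after CD95-Ab. The CD95-Ab mice all lay inside the saline range. Its log2 fold change was -0.05 ± 0.28 (SE; FDR 0.904, edgeR), and its sign turned without any 1 of 4 mice, saline replicates 3 and 5 and CD95-Ab replicates 4 and 5, with values up to 0.15.

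Scd1, the desaturase that makes oleate and palmitoleate, lies on the minus strand of chromosome 19 from 44394455 to 44407879 (ENSMUSG00000037071) and was the most abundant member. Saline-injected mice had 5471, 3616, 6032, 6314 and 9643 CPM, and mice injected with CD95-Ab had 2448, 1943, 4289, 3196 and 2172 CPM. Only CD95-Ab replicate 3 was above the lowest saline-injected mouse, replicate 2. The log2 fold change was -1.15 ± 0.29 (SE), with an FDR of 0.00686 in the edgeR test. RSEM divides reads that fit both Scd1 and its paralogs, which leaves the split between Scd1 and Scd2 uncertain.

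Me1, the malic enzyme that supplies NADPH for lipogenesis (chromosome 9, 86581371 to 86695953, minus strand, ENSMUSG00000032418), had 90.7, 71.9, 187, 170.4 and 373 CPM in saline-injected mice and 98.8, 99.6, 86.0, 131 and 99.5 CPM after CD95-Ab. The CD95-Ab mice lay within the saline range and close together, with a coefficient of variation of 16.2% against 66.8%. The log2 fold change of -0.79 ± 0.37 (SE) did not pass (FDR 0.0959, edgeR). It passed without saline replicate 1 (-0.97, FDR 0.0475) and without saline replicate 2 (-1.0, FDR 0.0256). Without saline replicate 5, the mouse with most Me1, it was -0.33 and did not pass (FDR 0.326, edgeR).

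Thrsp, the thyroid hormone responsive Spot 14 protein linked to lipogenesis (chromosome 7, 97412938 to 97417730, minus strand, ENSMUSG00000035686), had 302, 79.7, 239, 351 and 766 CPM in saline-injected mice and 137, 161, 316, 292 and 103 CPM after CD95-Ab. The highest and the lowest mouse were both saline-injected, replicates 5 and 2, and differed 9.60-fold. On the log2 scale the change was -0.79 ± 0.49 (SE; FDR 0.211, edgeR). It was -0.28 without saline replicate 5 (FDR 0.619, edgeR) and -1.05 without saline replicate 2 (FDR 0.0534, edgeR), and passed in neither case. Pnpla3, a lipid droplet hydrolase (chromosome 15, 84167837 to 84187236, plus strand, ENSMUSG00000041653), was at low levels, with 2.00, 1.42, 0.592, 1.0 and 13.8 CPM in saline-injected mice and 1.99, 1.43, 2.75, 6.30 and 5.36 CPM after CD95-Ab. Saline replicate 5 stood alone at the top, saline replicates 2, 3 and 4 were below every CD95-Ab mouse, and saline replicate 1 lay within the CD95-Ab range. The edgeR estimate of the log2 fold change was -0.10 ± 0.77 (SE; FDR 0.922, edgeR). It was 1.49 without saline replicate 5 and then passed (FDR 0.0272), and it was 0.05 and 0.10 without CD95-Ab replicates 1 and 2.

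Per length, in the FPKM values deposited with the counts, the saline medians ran from 0.35 for Pnpla3 through 8.55 for Elovl6, 9.85 for Acaca and 11.4 for Acacb to 53.2 for Me1, 62.1 for Srebf1 and 79.4 for Fasn, and then to 116 for Mlxipl, 280 for Thrsp and 1308 for Scd1. Elovl6, Acaca and Acacb had overlapping ranges across saline-injected mice, and so did every pair of Me1, Srebf1, Fasn, Mlxipl and Thrsp. Scd1, between 864 and 1751 FPKM, was above the range of every other member, and Pnpla3, between 0.13 and 2.61 FPKM, was below it. After CD95-Ab the medians of Srebf1, Mlxipl, Scd1 and Fasn were 21.4, 52.1, 567 and 94.7 FPKM.

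The members spread widely within the saline group. Saline replicate 5 had the highest level of 7 of the 10 genes and saline replicate 2 the lowest of 6. Replicate 5 also had the deepest library, with 62097636 counts against 37893839 in the next saline-injected mouse. Its TMM factor, 0.869, was the lowest of the saline group, and that of replicate 2, 1.14, was the highest. Whether depth or TMM factor bears on the spread was not tested. Averaged over the 10 genes, replicate 5 was 0.88 above the saline mean on the log2 scale and replicate 2 was 0.57 below it. The CD95-Ab mice ranged on the same average from -0.57 in replicate 2 to 0.01 in replicate 4, so the groups overlapped. The summed CPM of the 10 genes, which is mostly Scd1, was between 4628 and 12243 in saline-injected mice and between 3172 and 5481 after CD95-Ab. Without Scd1 the sums were between 1011 and 2600 CPM and between 1048 and 1716 CPM, and overlapped.

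**Figure D2:**
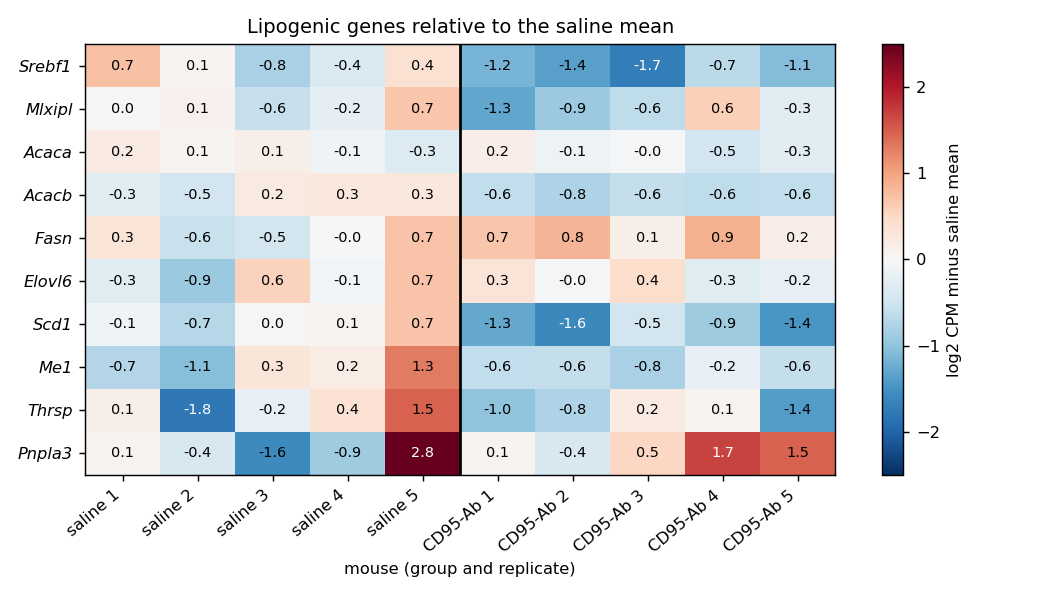
Heat map of log2 CPM of each lipogenic gene in each mouse minus the mean log2 CPM of the 5 saline-injected mice, with the colour scale in log2 units. Columns are the 5 saline-injected mice and, to the right of the line, the 5 mice injected with CD95-Ab. Saline replicate 5 is red in 9 rows, while Srebf1, Scd1, Acacb and Me1 are blue in all 5 CD95-Ab mice, although Me1 did not pass the test.

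The balance of Scd1 and Fasn differed between the groups. The ratio of Scd1 to Fasn in CPM was 13.2, 16.0, 25.0, 19.2 and 17.8 in saline-injected mice and 4.58, 3.26, 11.7, 5.22 and 5.85 after CD95-Ab, so that no CD95-Ab mouse reached the lowest saline-injected mouse. The mean log2 ratio was 4.16 ± 0.34 (SD, n = 5) and 2.48 ± 0.68 (SD, n = 5), a difference of -1.68 (exact permutation test, two-sided, p = 0.00794, the smallest that 5 mice against 5 allow, and 0.0476 adjusted over 6 ratios). The ratio of Srebf1 to Srebf2, the genes of the factors for fatty acid and for cholesterol synthesis, was 8.50, 4.47, 2.33, 2.48 and 6.86 in saline-injected mice and 0.913, 0.767, 0.823, 2.42 and 1.36 after CD95-Ab. Only CD95-Ab replicate 4 lay within the saline range. The difference of the mean log2 ratios was -1.93 (exact permutation test, two-sided, p = 0.0159, and 0.0476 adjusted over 6 ratios).

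Of the 6 ratios, 4 did not pass. The ratio of Srebf1 to Mlxipl had a difference of -0.70 (exact permutation p = 0.0714, adjusted 0.131), and without CD95-Ab replicate 1 it was -0.90 (exact permutation p = 0.0159, not adjusted). The ratio of Elovl6 to Fasn had a difference of -0.50 (exact permutation p = 0.246, adjusted 0.295). The ratio of Insig1 to Insig2 had a difference of 0.27 (exact permutation p = 0.675, also after adjustment), with values of -0.12 without saline replicate 3 and -0.05 without CD95-Ab replicate 1. Because both genes of a ratio come from the same library, none of these values depends on the scaling of libraries. A ratio, including those of Scd1 to Fasn and Srebf1 to Srebf2, can still depend on the mix of cells in the liver. The part of that mix in these values was not tested.

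**Figure D3:**
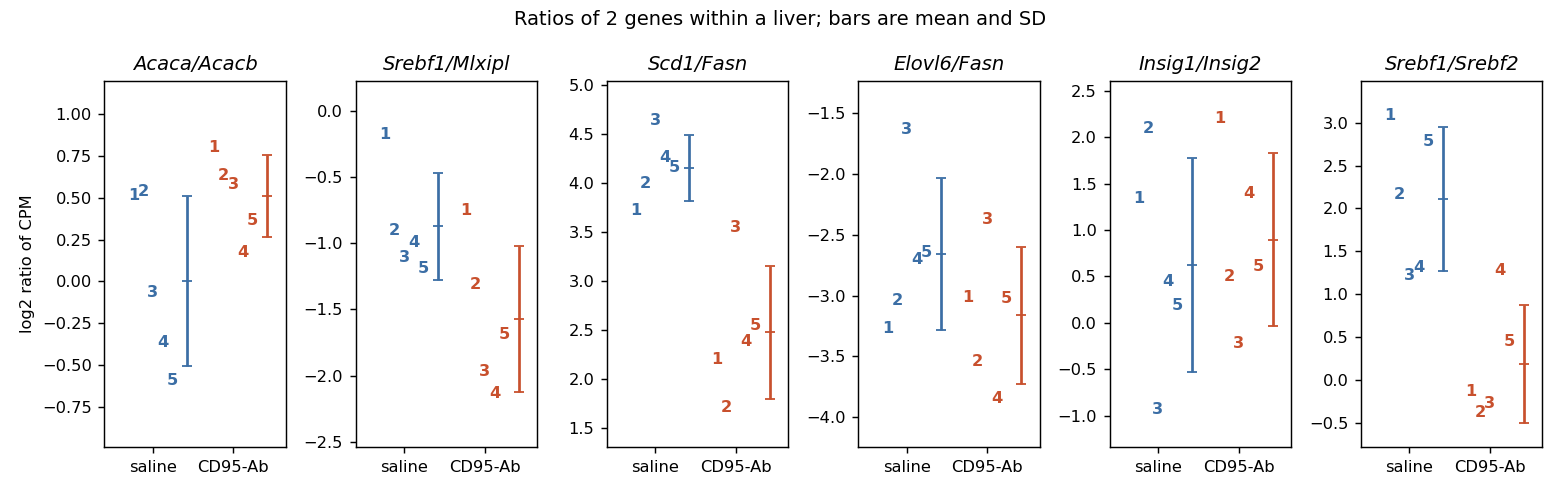
Log2 ratios of the CPM of 2 genes within each mouse, for 6 pairs, with saline-injected mice at the left and mice injected with CD95-Ab at the right of each panel. Digits are replicate numbers, and the bars show the mean and SD of 5 mice. The Scd1 to Fasn ratio separates the groups fully, and for Srebf1 to Srebf2 only CD95-Ab replicate 4 lies within the saline range.

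The scaling of the libraries decided the absolute direction of several members. When totals were replaced by the sum of the 12 hepatocyte markers, of which albumin made up between 63.3% and 76.7%, the median log2 fold change of all tested genes moved to 0.97, and with the geometric mean of the same 12 genes, an alternative chosen after seeing the data, it moved to 0.61. Against the hepatocyte sum, Srebf1 and Scd1 had log2 fold changes of -0.25 and -0.22 and no longer passed, Acacb turned to 0.29 and did not pass, and Fasn (1.51), Elovl6 (0.90) and Acaca (0.79) passed as higher. Against the geometric mean, Srebf1 and Scd1 had -0.64 and -0.57 and did not pass, Acacb had -0.07, and Fasn (1.12) and Acaca (0.46) passed as higher. At the same threshold, 71.6% of all tested genes were higher and 1.73% lower against the sum, and 54.9% were higher and 4.22% lower against the geometric mean, so the 3 and 2 lipogenic genes that passed as higher were below the background of either scaling. Since such a scaling moves all genes together, the differences between genes were left almost as they were. The lower calls of Srebf1, Scd1 and Acacb therefore hold for TMM totals and for neither hepatocyte scaling, and which scaling follows the RNA of a hepatocyte was not tested.

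**Figure D4:**
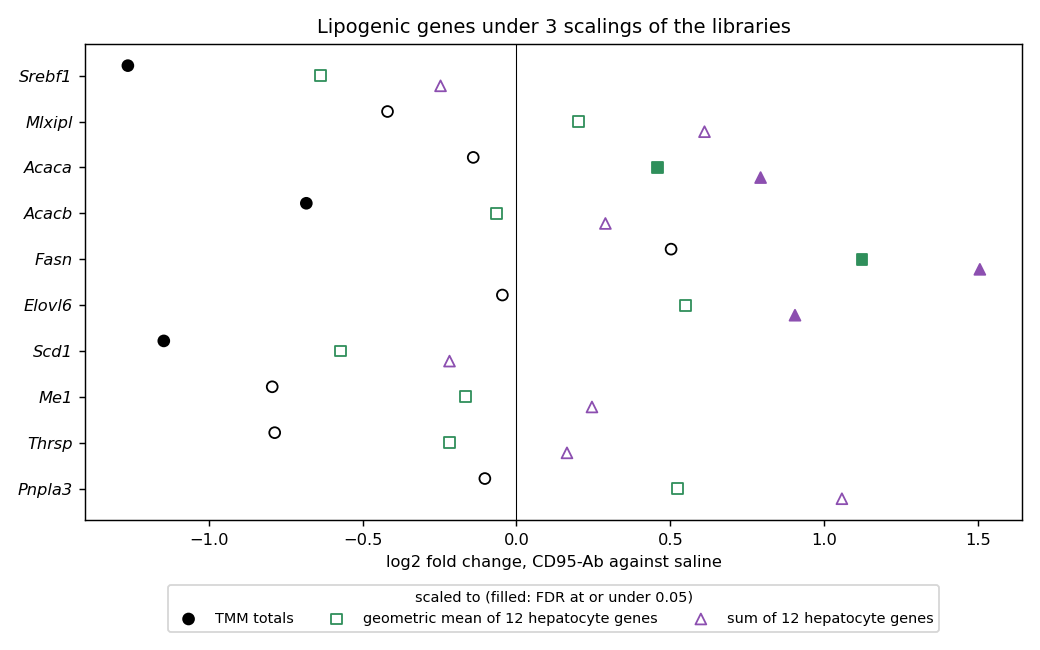
Log2 fold change of each lipogenic gene, CD95-Ab against saline, under 3 scalings of the libraries: TMM totals (circles), the geometric mean of 12 hepatocyte genes (squares) and their sum (triangles). Filled symbols passed an FDR of 0.05 in the edgeR test. All 10 genes shift to the right together, so that Srebf1, Scd1 and Acacb pass with TMM totals but with neither hepatocyte scaling, Fasn and Acaca pass as higher with both hepatocyte scalings, Elovl6 passes as higher with the sum, and Acacb, Mlxipl, Acaca, Elovl6, Me1, Thrsp and Pnpla3 change sign with the sum.

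The genes around the lipogenic core did not share one direction. The counts of each list below stand against the share of all tested genes given above, 25.4% higher and 22.0% lower with TMM totals, and against 71.6% higher and 1.73% lower with the hepatocyte sum. For the supply of acetyl-CoA and NADPH, 8 genes were tested, of which 2 were higher and 4 lower (median log2 fold change -0.24). The higher ones were the enzymes of the oxidative pentose phosphate pathway, G6pdx (1.21 ± 0.27, FDR 0.00286, edgeR), which averaged 4.35 ± 1.70 CPM in the saline group and 10.1 ± 1.77 CPM in the CD95-Ab group (SD, n = 5 each), and Pgd (0.65 ± 0.18 SE). The lower ones were Acss2 (-0.85 ± 0.25 SE), which activates acetate, Acly (-0.59 ± 0.19 SE), which cleaves citrate to acetyl-CoA, and the citrate carrier Slc25a1 (-0.42) and cytosolic Idh1 (-0.56), both named after their values were seen. The 4 lower calls became 2 without CD95-Ab replicate 3, and that of Acly was lost without any 1 of saline replicate 1 and CD95-Ab replicates 2, 3 and 4 (-0.59 to -0.41). With the hepatocyte sum all 8 genes of the list had positive values and 5 passed as higher.

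Of the other elongases and desaturases, 10 of 12 were tested, with 2 higher and 4 lower (median -0.57). Scd2, the desaturase isoform of brain and of proliferating tissue, had 4.14, 3.05, 3.13, 3.39 and 3.04 CPM in saline-injected mice and 13.5, 16.4, 24.4, 12.0 and 22.1 CPM after CD95-Ab, with no overlap. Its log2 fold change was 2.40 ± 0.21 (SE; FDR 4.71e-06, edgeR), opposite in sign to that of Scd1, although its level stayed far below: the median was 3.03 FPKM after CD95-Ab, against 567 FPKM for Scd1. Elovl7, an elongase of saturated and monounsaturated fatty acids, also was higher (2.24 ± 0.43 SE, FDR 0.00127) from a mean of 0.289 ± 0.166 CPM (SD, n = 5). The lower genes were Elovl2 (-1.03 ± 0.14 SE), an elongase of polyunsaturated fatty acids, and Fads6 (-1.31 ± 0.24 SE), together with the polyunsaturated fatty acid desaturases Fads1 (-0.96) and Fads2 (-0.90), named after their values were seen. With the hepatocyte sum none of the 10 passed as lower.

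For triglyceride synthesis, 14 of 16 genes were tested, with 3 higher, 3 lower and a median of -0.37, so that both counts were near the background of all tested genes. The higher ones were acyltransferases at low levels, Agpat4 (2.45 ± 0.37 SE), Gpat3 (1.35 ± 0.29 SE) and Agpat5 (0.84 ± 0.16 SE). The lower ones were Gpat2 (-1.11 ± 0.36 SE), whose call was lost without CD95-Ab replicate 1 or 2 or saline replicate 5 (-0.95, -1.0 and -0.99), and Agpat2 (-0.38) and Agpat3 (-0.61), named after their values were seen. Without CD95-Ab replicate 2 the 3 lower calls became 1. With the hepatocyte sum the counts were 8 higher and 0 lower, a share of higher genes below that of all tested genes under this scaling.

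Among 15 genes for the processing and partners of SREBP and ChREBP, 5 were higher and 3 lower, with a median of 0.08. Scap, the escort that carries SREBP precursors out of the endoplasmic reticulum, was lower with no overlap, averaging 112 ± 10.8 CPM in the saline group and 57.5 ± 5.94 CPM in the CD95-Ab group (SD, n = 5 each). Its change was -0.97 ± 0.12 (SE; FDR 4.44e-05, edgeR). Insig1, which retains that complex and is itself an SREBP target, had 211, 323, 119, 292 and 207 CPM in saline-injected mice and 698, 725, 307, 636 and 661 CPM after CD95-Ab. Only CD95-Ab replicate 3 lay within the saline range, and the log2 fold change was 1.39 ± 0.29 (SE; FDR 0.00196, edgeR). Insig2 was higher as well (1.11 ± 0.38 SE, FDR 0.0310), a call lost without any 1 of 5 mice, saline replicates 1 and 2 and CD95-Ab replicates 2, 3 and 5 (0.92 to 1.09).

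Srebf2, the gene of SREBP2, had 30.8, 37.4, 38.6, 49.3 and 30.2 CPM in saline-injected mice and 77.1, 80.2, 57.9, 40.9 and 55.3 CPM after CD95-Ab. All CD95-Ab mice except replicate 4 were above the highest saline-injected mouse, and the log2 fold change was 0.74 ± 0.20 (SE; FDR 0.00885, edgeR). Mlxip, which encodes the ChREBP relative MondoA, was higher with no overlap (0.83 ± 0.14 SE, FDR 0.000558). The other higher gene of the list was Pparg (0.57), and the other lower ones were the LXR partner Rxra (-0.82) and Usf2 (-0.49), all 3 named after their values were seen. Without CD95-Ab replicate 4 the lower calls of the list went from 3 to 5, and with the hepatocyte sum 12 were higher and none lower, Scap having -0.03.

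All 7 other ChREBP targets tested were lower, with a median of -1.12: G6pc, the catalytic subunit of glucose-6-phosphatase (-4.16 ± 0.43 SE, FDR 1.53e-05), Txnip, a thioredoxin-binding protein (-1.47 ± 0.30 SE), and Pklr, the liver pyruvate kinase (-1.33 ± 0.17 SE), were the 3 with the largest changes. G6pc had 1074, 496, 552, 482 and 294 CPM in saline-injected mice and 14.7, 38.9, 18.6, 42.9 and 46.6 CPM after CD95-Ab. With the geometric mean of the hepatocyte genes 4 of the 7 passed as lower, and with their sum only G6pc did and 3 had positive values. Several of these genes answer to other regulators as well, G6pc among them.

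Of 6 LXR targets, 2 were higher and 3 lower (median -0.89). The sterol exporters of macrophages and many other cells, Abca1 (1.46 ± 0.18 SE) and Abcg1 (1.49 ± 0.24 SE), were higher, and the exporters of hepatocytes into bile, Abcg5 (-1.58 ± 0.17 SE) and Abcg8 (-2.07 ± 0.17 SE), were lower, as was the phospholipid enzyme Lpcat3 (-1.44), named after its values were seen. All 4 exporters separated the groups with no overlap and kept their direction and call under both hepatocyte scalings. Of all tested genes, 14.7% separated in the lower direction, as Abcg5 and Abcg8 did, and the share separating upward was not computed. Of the leukocyte and macrophage markers, the summed level was between 105 and 273 CPM in saline-injected mice and between 515 and 921 CPM after CD95-Ab, and their part in the values of Abca1 and Abcg1 was not tested.

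Of 10 genes of cholesterol synthesis and uptake under SREBP2, 8 were higher and none lower, with a median of 1.22. Hmgcs1, the cytosolic synthase of the mevalonate pathway, averaged 170.1 ± 83.3 CPM in the saline group and 588 ± 262 CPM in the CD95-Ab group (SD, n = 5 each), with a log2 fold change of 1.79 ± 0.40 (SE; FDR 0.00301, edgeR). In 4 of 5 CD95-Ab mice it was above the highest saline-injected mouse. Sqle (1.49 ± 0.36 SE) and Idi1 (1.26 ± 0.42 SE), enzymes of the same pathway, were higher too. The call of Idi1 was lost without any 1 of 6 mice, saline replicates 1, 2, 3 and 5 and CD95-Ab replicates 1 and 2 (0.96 to 1.23). The 2 genes that did not pass, Fdps (0.47) and Fdft1 (0.39), were named after their values were seen, and with the hepatocyte scalings all 10 passed as higher.

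Of genes of the lipid droplet and of lipolysis, 14 of 16 were tested, with 2 higher, 8 lower and a median of -0.67. G0s2, an inhibitor of triglyceride lipase (-2.55 ± 0.65 SE), and the droplet coats Plin5 (-1.97 ± 0.35 SE) and Plin4 (-1.72 ± 0.42 SE) were lower, and the droplet fusion protein Cidec (1.98 ± 0.53 SE, FDR 0.00917) was higher. The other higher gene was Plin2, the main droplet coat of hepatocytes, named after its values were seen (0.51, FDR 0.0492), and its call rested on the whole set of mice, since the 2 higher calls became 1 without any single mouse other than saline replicate 4, and also with RLE factors or with totals alone as the scaling. The value of G0s2 was -1.85 without saline replicate 4 and still passed (FDR 0.0162, edgeR). With the hepatocyte sum 5 were higher and 2 lower. Of 9 genes that follow fasting, 3 were higher and 6 lower (median -1.01), with Fgf21 (-2.91 ± 0.73 SE), Angptl4 (-1.65 ± 0.28 SE) and Ppargc1a (-1.52 ± 0.36 SE) lower and Igfbp1, an insulin-repressed binding protein (2.29 ± 0.33 SE, FDR 0.000168), higher. Without saline replicate 2, its highest mouse at 16.8 CPM, Fgf21 had -1.97 and still passed (FDR 0.0140, edgeR). Pdk4 (1.44) and Irs2 (0.92), the other higher genes, were named after their values were seen. With the hepatocyte sum Fgf21 and Angptl4 alone of the 6 still passed as lower.

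**Figure D5:**
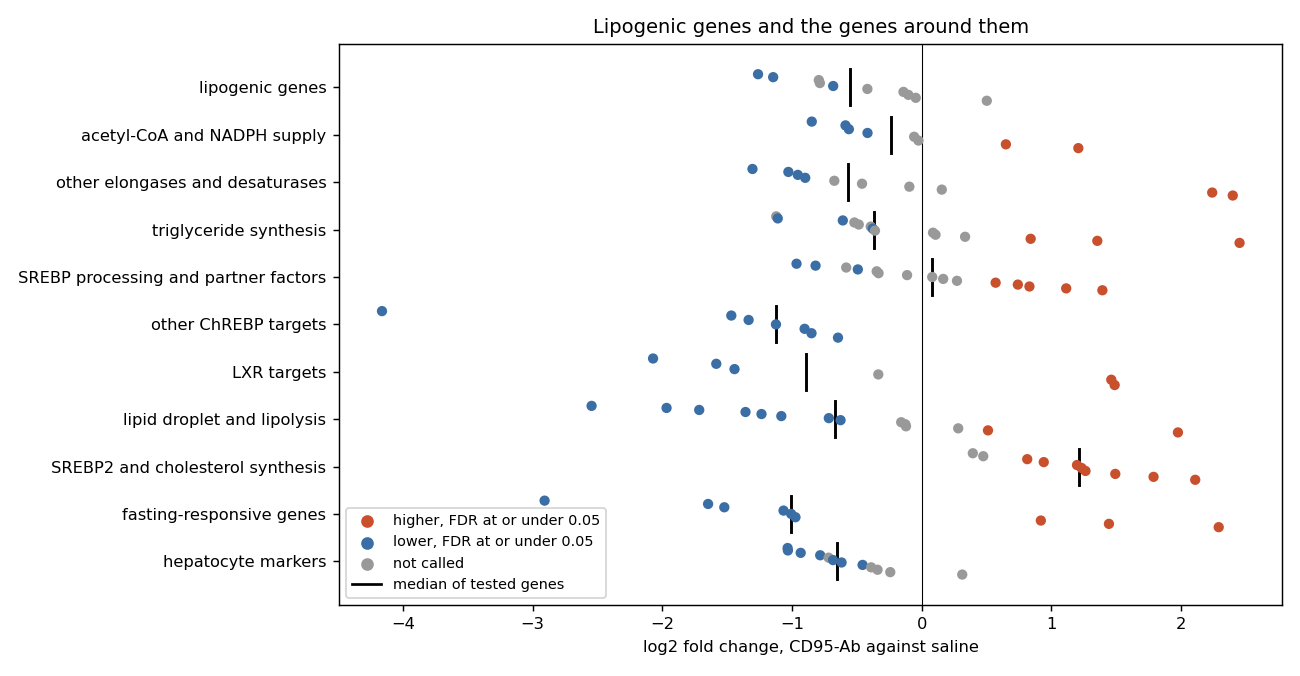
Log2 fold change, CD95-Ab against saline with TMM totals, of each tested gene in the lipogenic group, 9 further groups and the hepatocyte markers. Red points passed as higher and blue points as lower at an FDR of 0.05 in the edgeR test, grey points did not pass, and the black bar is the median of the group. The other ChREBP targets lie at -0.65 and below, the SREBP2 genes lie at 0.39 and above, and the lipogenic median of -0.55 lies between the medians of both. With the hepatocyte sum the medians of the groups are about 0.97 higher, and 3 of the ChREBP targets have positive values.

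The genes whose profile over the 10 mice was most like that of a member were found among 12129 tested genes with a mean of at least 1 CPM, by the root mean square difference of log2 CPM after each gene's own mean was removed. For Srebf1 the nearest were ENSMUSG00000074828, which has no symbol in the annotation used (0.241), Nmrk1 (0.296) and Vwce (0.296). For Fasn they were Xirp1 (0.201), Hirip3 (0.249) and Pgd (0.258), of which only Pgd passed the test. For Thrsp they were Pgam1-ps2 (0.392), Gstm3 (0.404) and Gstm2 (0.407), which were further away than the neighbours of Srebf1 and Fasn. The distance is not scaled to a gene's own spread, so those of different members cannot be compared directly. In the saline group the coefficient of variation was 73.4% for Thrsp, 40.1% for Srebf1 and 37.3% for Fasn. No other member was among the 3 nearest of Srebf1, Fasn or Thrsp. These are descriptions over 10 mice, in 2 groups, of genes that share libraries.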

How the data were processed

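Liver RNA of 10 mice, 5 per group, was analysed, with groups and replicate numbers taken from the sample labels. The authors ran RSEM 1.2.19 and deposited a table per mouse. The gene-level expected counts deposited there were whole numbers and not normalized, so none was rounded here. Whether they had been rounded before deposit cannot be told from the values. The FPKM values deposited beside them are scaled for length and depth and served only to compare levels between genes. RSEM shares reads that fit several genes. The mouse annotation release, the genome build and the strand setting are not given in the sources used here, and the paper and the labels differ on body weight and sequencer model. The methods of the paper name a human Gencode release, although the deposited identifiers are those of mouse genes. Symbols and positions came from GENCODE mouse release 21 (GRCm38), which held 37606 of the 38922 identifiers, and promoters from RefSeq (GRCm38.p6).

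Genes were kept by filterByExpr (minimum count 10), scaled with TMM factors and tested by edgeR 4.0.16 (quasi-likelihood, R 4.3.3) in a model holding only the group. The SE was derived from the F statistic. Ratios within a mouse were compared with exact permutation tests over 252 splits (scipy 1.17.1, Python 3.11.15, pandas 2.3.3). On simulated counts for 13457 genes in this comparison, the test recovered 48% of genes given a log2 difference of 1 and 100% of those given 2, with 3.90% of calls false. The simulation gave every gene the same dispersion and changed only 100 genes at each size, as many up as down. In the data 6495 genes passed, and genes such as Pnpla3 and Thrsp varied widely between mice. The simulated rates therefore do not give the recovery or the false calls in the data. No library repeated another in any of the 45 pairs of mice, by a chi-square test of their counts. The labels call the samples biological replicates.

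The members and gene lists were chosen with earlier results of these data known. Named genes were the 10 members, up to 4 called genes per list by size of change, the genes of the ratios, and the 3 nearest profiles of Srebf1, Fasn and Thrsp. The values of 2 list genes that this rule names are not reported here. Others needed to complete a small count are said to be named after their values were seen. Alternatives were DESeq2 1.42.0, other filters, scalings, prior count and thresholds, a replicate block, and the omission of single mice. Proteins, lipids and enzyme activities were not analysed here.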

Additional observations from a re-analysis of the deposited data

Results flagged for a closer look

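Of 32 groups of 5 mice examined (10 genes and 6 ratios in either group), 3 had a mouse far from the others, judged by its gap to the nearest mouse as a share of the group's whole range, with a limit of 0.71. Chance gives about 1 in 20 groups if values are normally distributed and groups independent. CPM that are skewed and ratios that share genes need not meet this, so the rate is only a guide. In the saline group, the highest mouse for Pnpla3, replicate 5 at 13.8 CPM, had a gap of 0.893 of the range, and the next mouse was at 2.00 CPM. In the CD95-Ab group, the lowest mouse for Acacb, replicate 2 at 41.8 CPM, had a gap of 0.736 of the range, in a group whose other mice lay between 45.3 and 46.6 CPM. In the saline group, the highest mouse for the log2 ratio of Srebf1 to Mlxipl, replicate 1 with a ratio of 0.886, had a gap of 0.718 of the range, and the next mouse had a ratio of 0.535.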

How the results depend on the processing

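Over all genes, 6495 passed the FDR threshold, and between 5616 and 6977 did with 1 mouse left out. DESeq2, the other filters, scaling to totals or RLE factors and an FDR of 0.01 each left 3 lipogenic genes lower and 0 higher. Scaling to the hepatocyte marker sum called 10054 genes, with 3 lipogenic genes higher and 0 lower, and scaling to their geometric mean, chosen after seeing the data, gave 2 higher and 0 lower. With 1 mouse left out, between 0 and 2 lipogenic genes were higher, the 2 being Fasn and Pnpla3 without saline replicate 5, and between 3 and 4 were lower. Signs turned under the geometric mean and the sum for Mlxipl (0.20 and 0.61), Acaca (0.46 and 0.79), Elovl6 (0.55 and 0.90), Pnpla3 (0.52 and 1.06) and Acly (0.018 and 0.37), and under the sum alone for Acacb (0.29), Me1 (0.25), Thrsp (0.16) and Acss2 (0.16). They turn because the scaling moves all genes up together. With 1 mouse left out, signs turned for Elovl6 (0.01, 0.02, 0.09 and 0.15, in a range of -0.23 to 0.15) and Pnpla3 (0.05, 0.10 and 1.49, in a range of -0.45 to 1.49), and the cause was not tested. The ratios then ranged from 0.36 to 0.64 for Acaca to Acacb, -0.90 to -0.52 for Srebf1 to Mlxipl, -1.95 to -1.49 for Scd1 to Fasn, -0.70 to -0.24 for Elovl6 to Fasn, -0.12 to 0.64 for Insig1 to Insig2 (-0.12 and -0.05 being the turned values) and -2.20 to -1.68 for Srebf1 to Srebf2. The labels do not say whether same-numbered mice share anything. Deviations of same-numbered mice correlated at 0.04 on average, from -0.27 for replicate 5 to 0.26 for replicate 1. Of the 5 saline-injected mice, 2 correlated best with their own number. With so few mice, shared handling cannot be told from none. With the replicate block 5987 genes passed, the lipogenic genes had 0 higher and 3 lower calls, Elovl6 and Pnpla3 turned to 0.043 and 0.60, and the calls of Cidec (1.89, FDR 0.0555, edgeR) and Idi1 (1.204, FDR 0.0783, edgeR) were lost. Paired by number, the ratios of Scd1 to Fasn (-1.68) and Srebf1 to Srebf2 (-1.93) had an exact sign-flip p of 0.0625, the smallest that 5 pairs allow, so that test cannot pass. Among the 10 lipogenic genes depth limits Pnpla3 most, at 21 counts in its lowest mouse, and among the other named genes Elovl7 (4 counts), Fgf21 (5), Agpat4 (9), Gpat2 (10) and Cidec (19) were lower still.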
